A study of Mus musculus with 47 samples.

Results

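Mitochondrially encoded genes were followed in 47 single mouse induced pluripotent stem cells (iPSCs) as the genes of the allelic count table whose symbol begins with mt-, which gave 9 of its 13947 genes. The iPSCs had been made from embryonic fibroblasts of a cross between a Mus mother carrying an X-linked eGFP transgene, whose allele the table's columns name X129, and a Cast father, by lentiviral overexpression of OSKM (Oct4, Sox2, Klf4 and c-Myc), and, by GEO's labels, were grown with serum, LIF and 50 µg/ml ascorbic acid. For iPSC controls the study's methods name picked colonies that were passaged without ascorbic acid, and whether this applies to the plate is not given. The cells came from 1 plate, were sorted into a GpC methylase mix, and poly(A) RNA was pulled out of each lysate with oligo-dT beads. GEO's labels call all of them iPSCs with no further group, no line and no passage. The names of the table's columns sort them into 23 X-Mus X-Cast cells with both X chromosomes, 15 X-Cast O-Mus cells that kept only the Cast X, and 9 X-Mus O-Cast cells that kept only the Mus X.

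The mitochondrial genome is a small circle present in many copies per cell and inherited from the mother. It encodes subunits of the respiratory chain and of ATP synthase, together with the ribosomal and transfer RNAs that translate them, while all other mitochondrial proteins are made from nuclear genes. Both strands are transcribed as long precursors that are cut mostly at the transfer RNAs, and most of the messengers then receive a poly(A) tail, which in several of them completes a stop codon that the genome does not encode in full. Pluripotent stem cells are known for immature mitochondria and for a strong use of glycolysis.

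GENCODE M21 annotates 13 protein-coding genes, 2 ribosomal RNAs and 22 transfer RNAs on the mitochondrial chromosome (GRCm38). The table held 7 of the protein-coding genes and both ribosomal RNAs. Complex I, the NADH dehydrogenase, was represented by mt-Nd1 (chrM:2751-3707), mt-Nd2 (chrM:3914-4951), mt-Nd4 (chrM:10167-11544), mt-Nd5 (chrM:11742-13565) and mt-Nd6 (chrM:13552-14070). Complex III was represented by mt-Cytb (chrM:14145-15288), which encodes cytochrome b, and complex IV by mt-Co1 (chrM:5328-6872), which encodes the catalytic subunit of cytochrome c oxidase. The small and large ribosomal RNAs were mt-Rnr1 (chrM:70-1024) and mt-Rnr2 (chrM:1094-2675). The remaining mitochondrial genes, among them mt-Co2, mt-Co3 and mt-Atp6, were not analysed here.

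The last 30 bases of 6 of the messengers are given here from the GENCODE M21 transcripts, 5′ to 3′ in the sense of each gene, because they show the incomplete stop codons and the place where mt-Nd5 and mt-Nd6 overlap. In mt-Nd1 and mt-Co1 the capitals mark the last annotated codon, in mt-Nd4 and mt-Cytb the 1 base left over after the last full codon, and in mt-Nd5 and mt-Nd6 the stretch of 14 bases (chrM:13552-13565) that both genes share on opposite strands.
mt-Nd1: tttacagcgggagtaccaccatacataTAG
mt-Co1: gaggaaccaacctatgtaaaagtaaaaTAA
mt-Nd4: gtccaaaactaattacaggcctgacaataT
mt-Cytb: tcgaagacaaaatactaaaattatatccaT
mt-Nd5: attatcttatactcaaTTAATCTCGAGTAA
mt-Nd6: tttattattatcgagaTTACTCGAGATTAA
Of the 9 genes, mt-Nd6 alone lies on the minus strand of the reference. The library kit does not keep strand, so a read within those 14 bases could belong to either gene. The longest run of A in a transcript ranged from 3 bases in mt-Nd6 to 8 in mt-Nd2, and A made up 22.2% of mt-Nd6 against 29.5% to 38.2% of the other genes.

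Each cell had between 71682 and 216451 allelic counts, that is counts of Mus or Cast bases at positions that differ between the strains (SNPs), summed over a gene, and between 2918 and 5799 detected genes. Of 14 listed iPSC markers 13 were in the table, and a cell had counts for 10 to 13 of them, with Tdgf1 and Pou5f1 counted in all 47, whereas 10 fibroblast markers in the table summed to 114 counts over the plate and 0 to 30 per cell. Col1a2, Dcn and Lum were at 0 throughout, and Thy1 gave 91 of the 114 counts. Cells that come from the same plate do not replicate a condition, so all differences between cells and between X classes are given as values with no test.

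The mitochondrial counts were of Mus origin almost without exception, the strain of the mother. Of 1620088 counts over the 9 genes, 1619964 were Mus and 124 were Cast, a Cast share of 0.00765% (95% exact Clopper-Pearson interval 0.00637% to 0.00913%). That is 1 Cast count in 13065. Such intervals cover counting error only and are too narrow, since amplified reads without molecular identifiers are not independent molecules and, where counts are summed over SNPs, a read that spans several of them counts more than once.

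Every gene showed this on its own. The Mus share was lowest in mt-Co1 at 99.98%, where 42 of 174137 counts were Cast, or 0.0241% (interval 0.0174% to 0.0326%). In mt-Nd1 there were 30 Cast counts of 680249, a share of 0.00441% (0.00298% to 0.0063%). The Cast share of mt-Co1 thus lay above that of mt-Nd1 with intervals that did not overlap, and the same held against mt-Cytb, with 31 Cast counts of 530302 or 0.00585% (0.00397% to 0.0083%). The other complex I genes lay between, with 8 Cast counts of 54618 in mt-Nd2, 4 of 65755 in mt-Nd4, 7 of 86742 in mt-Nd5 and 2 of 20526 in mt-Nd6, and their intervals overlapped that of mt-Co1 or of mt-Nd1 or of both. Neither ribosomal RNA had a Cast count. With 0 of 6697 counts in mt-Rnr2 a Cast share of up to 0.0448% is allowed (3 counts of the total), and with 0 of 1062 in mt-Rnr1 up to 0.282%.

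Cell by cell, the Cast counts ranged from 0 to 7 with a median of 2, and the Cast share from 0% to 0.0224%. In 8 cells there was no Cast count among 12829 to 49041 mitochondrial counts, which allows a share between 0.00612% and 0.0234%. The most, 7, were found in the cells of wells B2 and G4. No cell stood out as a carrier of Cast mitochondrial genomes at this depth, and the lowest Mus share of any cell was 99.98%. The mean number of Cast counts per cell was 2.64 and its variance 4.15.

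This was so whichever X a cell had kept. Where the X of the mother had been lost (X-Cast O-Mus), 35 of 537050 mitochondrial counts were Cast, or 0.00652% (0.00454% to 0.00906%). For X-Mus O-Cast there were 11 of 264193, or 0.00416% (0.00208% to 0.00745%), and for X-Mus X-Cast 78 of 818845, or 0.00953% (0.00753% to 0.0119%). All 3 shares were below 0.01%, and the last interval began just above the end of the second.

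Read as a rate at which counts land on the wrong strain, these values can be set beside the genes of the lost X in cells with a single X. Cells of the class X-Cast O-Mus had 91 Mus assignments among 27634 X-linked counts, or 0.329% (0.265% to 0.404%), which is 43.02 times the mitochondrial Cast share over all cells. Those of X-Mus O-Cast had 226 Cast assignments among 18759, or 1.2% (1.05% to 1.37%), which is 157 times that share. The X-Cast O-Mus rate is of Mus counts where the Cast X was kept, the reverse of the mitochondrial one. Only the X-Mus O-Cast rate runs in the same direction, Cast counts where Mus is present. The X-linked counts of the wrong strain were held by few genes, 36 of 293 and 29 of 262. Without the 5 genes that held most of them the rates were 0.207% and 0.276%, or 27.1 and 36.01 times the mitochondrial share. The classes had been set from X-linked allelic counts, so low rates there are part of how the cells were named. Mitochondrial counts are not X-linked.

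**Figure D1:**
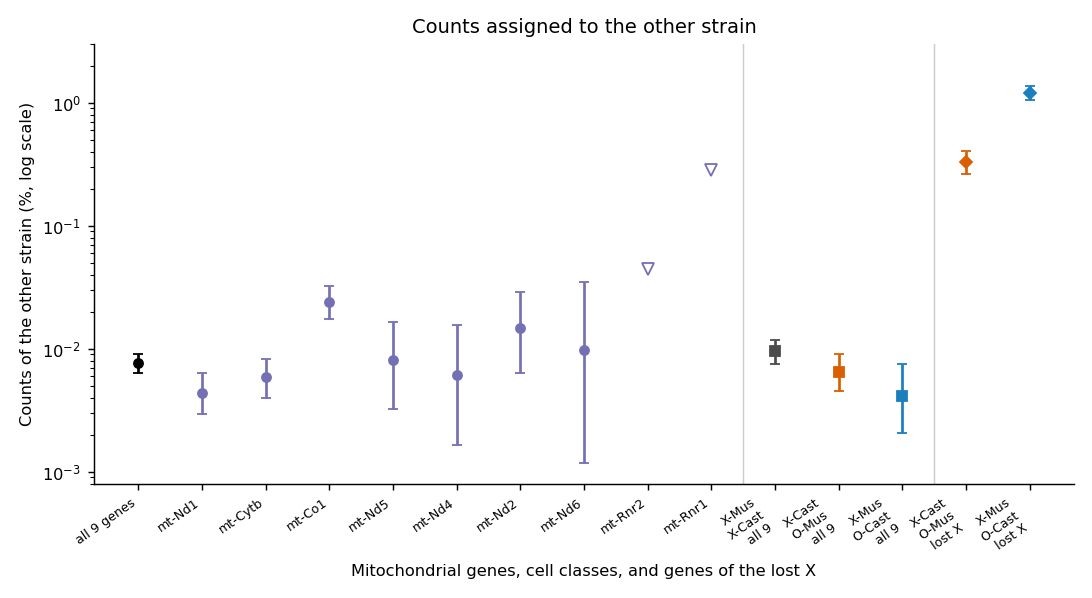
Share of counts assigned to the other strain, in percent on a log scale, for all 9 mitochondrial genes together and each gene (circles, Cast counts over all cells), for the 9 genes within each X class (squares), and for X-linked genes of the lost X (diamonds), with 95% Clopper-Pearson intervals as bars. Open triangles mark the upper limit allowed by a count of 0, and the mitochondrial points lie between 0.00416% and 0.0241% while the lost X gave 0.329% and 1.2%.

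Mitochondrial genes took up a large part of each cell's counts. Their share of the allelic counts of a cell ranged from 9.09% to 26.7% with a median of 22.1% (SD 4.36 percentage points over 47 cells), and it was 20.98% over the pooled counts. The table used here held no symbol that begins with a capital M, a letter that opens 5.03% of the protein-coding symbols of GENCODE M21, so the totals leave such genes out. The shares are shares of allelic counts at positions that differ between the strains, not of all reads of a cell.

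The mitochondrial counts also moved the allelic balance of the whole cell. Over nuclear genes the Mus share of a cell was between 41.03% and 45.7% with a median of 42.9%, and no cell had a Mus majority. With the 9 mitochondrial genes included, the Mus share was between 46.4% and 58.1% with a median of 55.3%, and 45 of the 47 cells had a Mus majority.

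Ranked by counts among all 13947 genes of the table, mt-Nd1 was the first, mt-Cytb the second, mt-Co1 the third and mt-Nd5 the fourth. Then mt-Nd4 stood at rank 7, mt-Nd2 at 8, mt-Nd6 at 21, mt-Rnr2 at 113 and mt-Rnr1 at 1284. The first 3 held 85.5% of the mitochondrial counts, with 42.0% for mt-Nd1, 32.7% for mt-Cytb and 10.7% for mt-Co1.

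Levels were expressed as counts per 10000 nuclear counts of the same cell, so that the mitochondrial counts are not part of their own total. On this scale mt-Nd1 ranged over the 47 cells from 157 to 1801 with a median of 1197. Cytochrome b followed, mt-Cytb ranging from 247 to 1716 with a median of 870.5. The oxidase subunit mt-Co1 ranged from 130 to 444 with a median of 279. These levels depend on how many strain differences a gene holds, which is not given in the sources used here, as well as on how much RNA there was, so the order of the genes is an order of allelic counts.

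Among the other complex I genes, mt-Nd5 had a median level of 152 (44.3 to 225), mt-Nd4 of 111 (35.97 to 295), mt-Nd2 of 86.9 (26.96 to 186) and mt-Nd6 of 34.6 (17.3 to 52.0). The ribosomal RNAs were the lowest, mt-Rnr2 at 11.2 (2.00 to 20.6) and mt-Rnr1 at 1.61 (0 to 5.79), and mt-Rnr1 was at 0 in 2 cells while the other 8 genes were counted in all 47. Their low rank stands beside a protocol that captures poly(A) RNA, and the part of that step was not tested.

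The order held in nearly all cells at some steps and not at others. The level of mt-Cytb was above that of mt-Co1 in 45 of 47 cells, and mt-Co1 was above mt-Nd5 in 46. Between neighbours that lay close, the order often turned within a cell: mt-Nd1 exceeded mt-Cytb in 36 cells, mt-Nd5 exceeded mt-Nd4 in 36, and mt-Nd4 exceeded mt-Nd2 in 33. From mt-Nd2 to mt-Nd6, from mt-Nd6 to mt-Rnr2 and from mt-Rnr2 to mt-Rnr1 it held in all 47. Divided by gene length, the median levels per kilobase were 1251 for mt-Nd1, 761 for mt-Cytb and 181 for mt-Co1, and those of mt-Nd2, mt-Nd5 and mt-Nd4 were 83.7, 83.1 and 80.7. Counts are taken only at strain differences, whose number per gene is not given. Division by length therefore does not make the genes comparable.

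**Figure D2:**
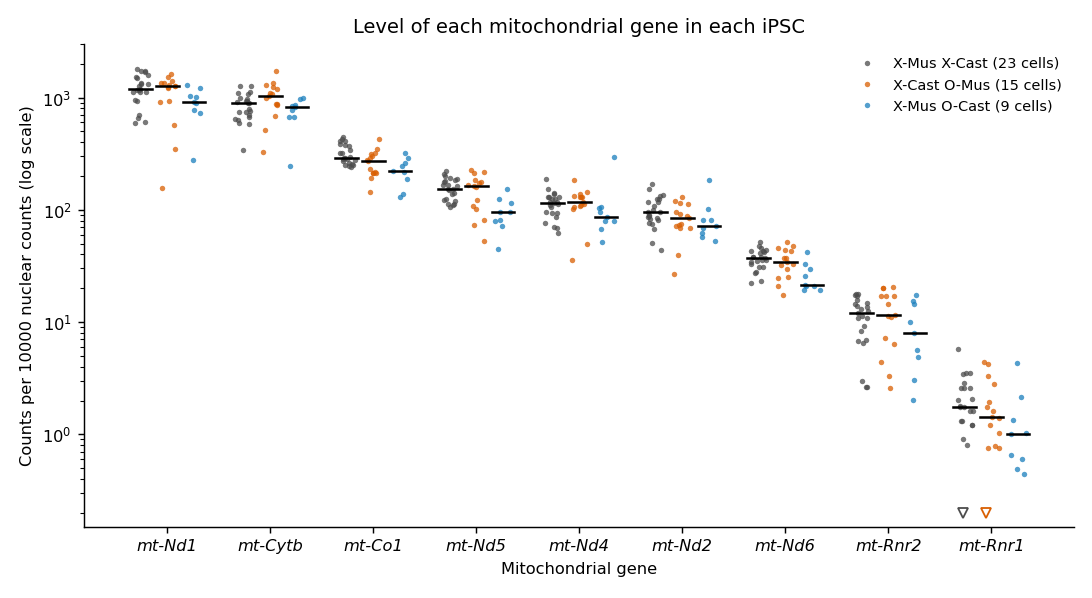
Level of each mitochondrial gene in each of the 47 cells, in counts per 10000 nuclear counts on a log scale, with a point per cell, colours for the X classes and black lines for class medians. Open triangles near the axis are the 2 cells with no mt-Rnr1 count, and the medians over all cells fall from 1197 for mt-Nd1 to 1.61 for mt-Rnr1.

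The share of the cell total was not spread evenly over cells. In 4 cells it was below 15%: 9.09% in well C4, 9.47% in B1, 12.4% in A2 and 13.9% in F2. These cells belonged to all 3 X classes, C4 and A2 being X-Cast O-Mus, B1 X-Mus O-Cast and F2 X-Mus X-Cast. Their depth ran from 131809 to 196630 allelic counts, beside a median of 167041 over the plate, with 4132 to 5652 detected genes. Fibroblast marker counts were 0 in C4, A2 and F2 and 26 in B1, against 30 in A5, whose mitochondrial share was 23.2%.

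In these cells several genes were low and mt-Co1 was not. They had been picked by a share of which mt-Nd1 and mt-Cytb are the larger part, so low values of these genes are built in. In C4 the level of mt-Nd1 was 157, or 0.131 times the median cell, and in B1 it was 277, or 0.231 times. For mt-Co1 the same cells stood at 348 and 290, or 1.25 and 1.04 times the median. The ratio of mt-Nd1 to mt-Co1 was accordingly 0.45 in C4 and 0.954 in B1, the only cells with more mt-Co1 than mt-Nd1. Over all cells this ratio had a median of 4.1 and reached 9.13 in G1, a 20.3-fold range.

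In the 4 cells other genes were low to different degrees. The level of mt-Cytb was 0.378, 0.283, 0.595 and 0.394 times the median in C4, B1, A2 and F2. For mt-Nd2 these values were 0.31, 0.613, 0.454 and 1.01, for mt-Nd4 they were 0.324, 0.467, 0.447 and 0.63, and for mt-Rnr2 they were 0.229, 0.269, 0.295 and 0.816. In contrast, mt-Nd6 was at 0.501 in C4 but at 1.21, 1 and 1.32 in the other three. Over the whole plate mt-Nd1 was the most counted mitochondrial gene in 35 cells, mt-Cytb in 10 and mt-Co1 in 2.

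**Figure D3:**
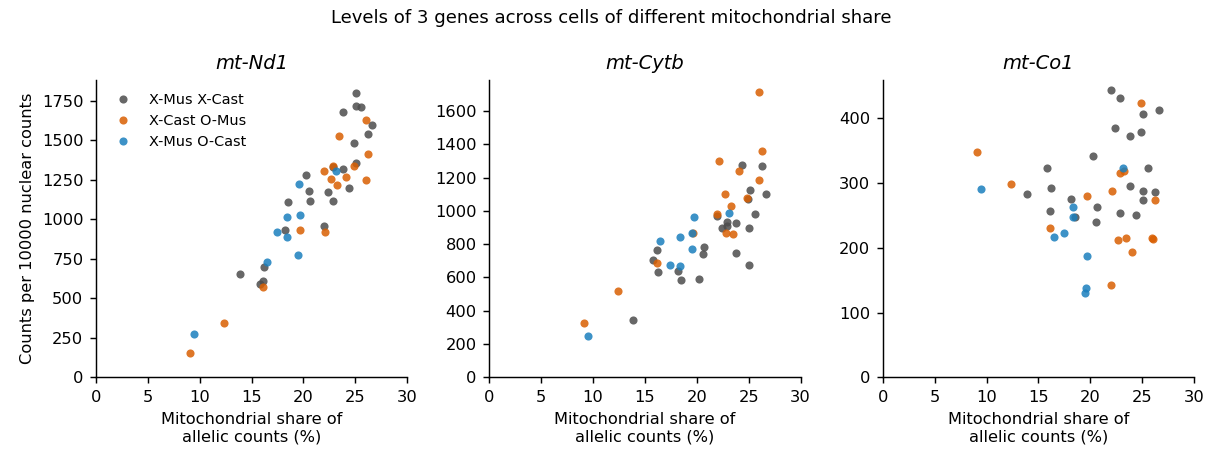
Levels of mt-Nd1, mt-Cytb and mt-Co1 in counts per 10000 nuclear counts (vertical axes, each from 0) against the mitochondrial share of the allelic counts of the cell in percent, with a point per cell coloured by X class. The cells of lowest share, 9.09% and 9.47%, have mt-Nd1 levels of 157 and 277 but mt-Co1 levels of 348 and 290, within the range of the other cells.

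The levels of the mitochondrial genes went up and down together across cells, with mt-Co1 apart. Over the 36 pairs of genes Spearman's rho across 47 cells had a median of 0.40 and ranged from -0.20 to 0.63. The genes of a cell share its library, depth and nuclear total, and the cells share a plate, so these values are a description. The highest values were those of mt-Nd5 with mt-Nd6, which overlap on opposite strands, and of mt-Rnr1 with mt-Rnr2, both at 0.63 and both neighbours on the genome. Of the other pairs that follow each other in the table, mt-Rnr2 with mt-Nd1 had 0.61, mt-Nd1 with mt-Nd2 0.60 and mt-Nd4 with mt-Nd5 0.43. Low values were those of mt-Nd2 with mt-Co1 at 0.01 and mt-Nd6 with mt-Cytb at 0.16. The pair of mt-Co1 with mt-Nd4, which follow each other in the table but not on the genome, had -0.05. Among pairs that do not follow each other in the table the highest were mt-Rnr2 with mt-Nd2 at 0.61 and mt-Rnr1 with mt-Nd1 at 0.60, and the median was 0.51 over the 8 pairs that do and 0.39 over the other 28.

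The 8 pairs with mt-Co1 had a median rho of -0.02, from -0.20 with mt-Rnr2 to 0.36 with mt-Nd5, and the 28 pairs without it one of 0.46. Against the summed level of the other 8 genes mt-Co1 had a rho of 0.04, whereas mt-Nd2 had 0.65, mt-Rnr2 0.62, mt-Nd1 0.61, mt-Rnr1 0.60, mt-Nd4 0.57, mt-Cytb 0.55 and mt-Nd5 0.52. The minus-strand gene mt-Nd6 was intermediate at 0.29. Without the 4 cells of lowest share the median of the mt-Co1 pairs was 0.07, and in the X-Mus X-Cast cells alone it was 0.16, so its sign turned with the cells used.

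When the genes were taken as shares of the mitochondrial counts of the cell instead, the median rho over pairs was -0.01, since shares that sum to a fixed total pull against each other. On that scale mt-Nd5 with mt-Nd6 remained at 0.64, and mt-Co1 with mt-Nd6 stood at 0.55 and with mt-Nd5 at 0.47. The share of mt-Nd1 in the mitochondrial counts ran against that of mt-Cytb with a rho of -0.63.

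**Figure D4:**
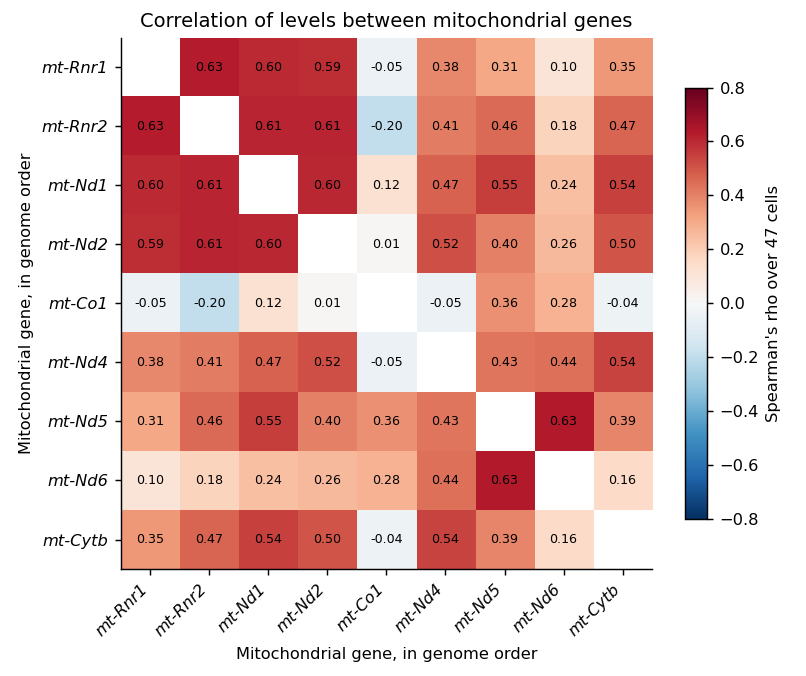
Spearman's rho between the levels of each pair of mitochondrial genes (counts per 10000 nuclear counts) over 47 cells, with genes in genome order on both axes and colour from blue (negative) to red (positive). The row of mt-Co1 is pale, from -0.20 to 0.36, while the 28 other pairs lie between 0.10 and 0.63.

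The mitochondrial messengers varied between cells about as much as well-counted nuclear genes or less. Their coefficient of variation over cells was between 0.266 for mt-Co1 and 0.37 for mt-Nd4, with 0.275 for mt-Nd6, 0.318 for mt-Cytb, 0.329 for mt-Nd5, 0.346 for mt-Nd1 and 0.353 for mt-Nd2. The ribosomal RNAs, at far lower counts, had 0.493 and 0.699. Among the 196 nuclear genes that averaged 100 or more counts a cell the median was 0.398, beside 0.329 for the 7 messengers. Of the 196, 28 lay below mt-Co1 and 74 below 0.346, the median of all 9 mitochondrial genes. The sets are not matched for counts, the messengers having medians of 446 (mt-Nd6) to 15295 (mt-Nd1) counts a cell.

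Across cells the summed mitochondrial level had a rho of -0.26 with the number of nuclear counts and of -0.17 with the number of detected genes. Nuclear counts are the denominator of these levels, so a negative rho with them is in part built in. The gene with the most negative values was mt-Nd4, at -0.49 and -0.44. The largest mt-Nd4 level, 295, belonged to E4, which was also the shallowest cell with 71682 allelic counts.

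The cells that had kept only the Mus X had a lower median mitochondrial share, while those that had kept only the Cast X had the same median as the cells with both. For the 23 X-Mus X-Cast cells the share ranged from 13.9% to 26.7% with a median of 22.9%. For the 15 X-Cast O-Mus cells it ranged from 9.09% to 26.2%, again with a median of 22.9%. For the 9 X-Mus O-Cast cells it ranged from 9.47% to 23.1% with a median of 18.4%, 0.804 times the first value, and 8 of the 9 lay below the X-Mus X-Cast median. The ranges overlapped, only 1 of the 9 falling below the lowest X-Mus X-Cast cell. The medians differed by 4.49 percentage points, beside SDs of 3.7 for X-Mus O-Cast and 3.74 for X-Mus X-Cast.

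Position on the plate moved with this difference. Rows C, D and E had median shares of 19.3%, 19.1% and 19.6%, and the other rows 21.95% to 24.1%, and rows C to E held 6 of the 9 cells of class X-Mus O-Cast. These row medians include the X-Mus O-Cast cells, so they do not show position apart from class. In the X-Mus X-Cast cells alone the medians were 22.6%, 18.5% and 18.4% in rows C, D and E (2, 3 and 2 cells). In the other rows they were 22.4% to 25.04% (1 to 5 cells). In the 5 rows that held both classes, the X-Mus O-Cast median was lower than the X-Mus X-Cast median in 3 and higher in 2, with differences from -7.53 to 1.12 percentage points. Within rows C to E the medians were 18.9% for 6 X-Mus O-Cast cells and 20.2% for 7 X-Mus X-Cast cells. By plate column the medians ran from 19.6% in column 1 to 23.6% in column 6, and columns 1 and 2 held 6 of the 9 X-Mus O-Cast cells. The column medians include these cells as well. In the 5 columns that held both classes, the X-Mus O-Cast median was lower in 4 and higher in 1, with differences from -7.91 to 3.59 percentage points. The part of plate position in the difference was not tested.

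**Figure D5:**
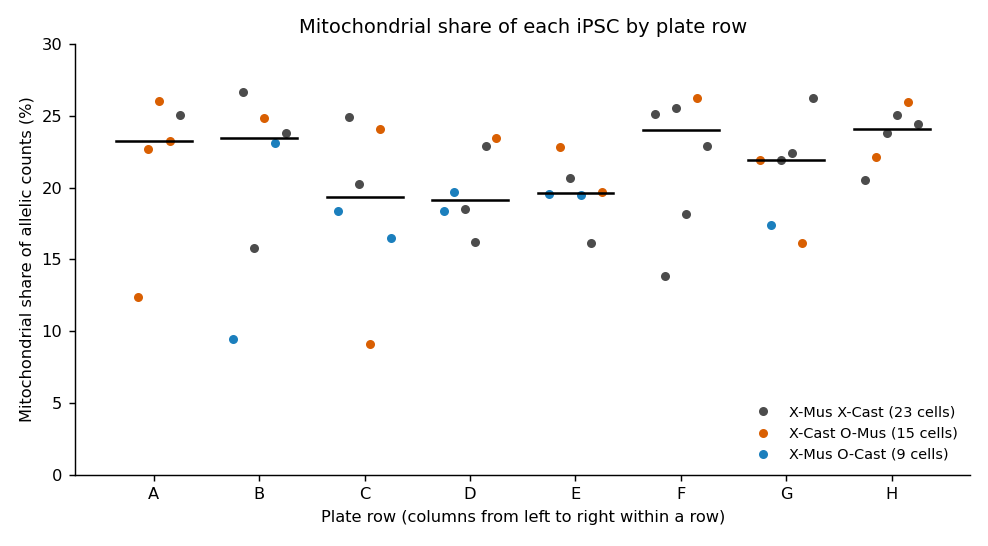
Mitochondrial share of the allelic counts of each cell, in percent, by plate row, with cells placed from left to right by plate column and coloured by X class; black lines are row medians. The row medians, over the cells of all classes, run from 19.1% in D to 24.1% in H, and rows C to E hold 6 of the 9 cells of class X-Mus O-Cast.

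By gene, the means of all 9 mitochondrial genes were lower in X-Mus O-Cast than in X-Mus X-Cast cells, with a median log2 fold of -0.43 beside -0.05 over all 4149 genes compared. Of all genes compared 47.1% were higher. The 9 genes of a cell share its nuclear total and its library, so their directions are not independent. Past a 1.5-fold decrease were 2 of the 9, mt-Nd5 and mt-Rnr1, a share close to the 21.4% of all genes that passed it, and 0 of the 9 were past a 1.5-fold increase, where 16.6% of all genes were. The count was 4 of 9 from medians over cells, with mt-Rnr2 and mt-Nd6 added, where 32.1% of all genes passed, and 1 of 9 with all allelic counts as the total, where 19.3% did, so it says nothing particular of the mitochondrial genes.

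The clearest separation was in mt-Nd5. Its level in X-Mus O-Cast cells was 96.0 ± 32.3 (SD, n = 9 cells) against 156 ± 34.3 (SD, n = 23 cells) in X-Mus X-Cast cells, 0.615-fold, and 6 of the 9 cells lay below the lowest X-Mus X-Cast cell at 106. For mt-Co1 the means were 224 ± 65.1 and 318 ± 64.6 (SD, the same cells), 0.704-fold, with 5 of 9 cells below the lowest at 240. For mt-Nd6 they were 25.7 ± 7.76 and 36.8 ± 7.63 (SD, the same cells), 0.70-fold, again with 5 of 9 below the lowest at 22.2. In these 3 genes the X-Mus O-Cast median was lower in all 5 rows that held both classes, at 0.442 to 0.775 times for mt-Nd5, 0.514 to 0.86 times for mt-Co1 and 0.561 to 0.805 times for mt-Nd6. The ranges of the classes overlapped in every gene.

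Of the most counted genes, mt-Cytb differed least. In X-Mus O-Cast cells mt-Nd1 was 0.742-fold and mt-Cytb 0.8935-fold the X-Mus X-Cast mean, and mt-Cytb was lower in 3 of the 5 shared rows. For mt-Nd4 the fold of means was 0.951 and that of medians 0.754, with 8 of 9 cells below the X-Mus X-Cast median and E4, at 295, above every other cell of the plate.

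In the X-Cast O-Mus cells 6 of the 9 means were lower and 3 higher than in X-Mus X-Cast cells, with a median log2 fold of -0.08 beside 0.01 over all genes, of which 50.5% were higher. None of the 9 passed 1.5-fold in either direction, where 16.1% of all genes were higher and 14.8% lower. Among those that were lower the furthest were mt-Co1 at 0.831-fold, with 7 of 15 cells below the lowest X-Mus X-Cast cell, and mt-Nd2 at 0.8415-fold, and among those that were higher mt-Cytb at 1.185-fold, with 3 of 15 above the highest. The median ratio of mt-Cytb to mt-Co1 was higher in both classes with counts from 1 X than in X-Mus X-Cast cells (2.54), at 4.02 for X-Cast O-Mus cells and 3.21 for the X-Mus O-Cast class, and all 3 classes overlapped.

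Nuclear genes were then ordered by how their level followed the summed mitochondrial level across cells. Of 4140 nuclear genes averaging 5 or more counts a cell, 4.25% had a rho of at least 0.3 and 2.97% one of at most -0.3. Both measures share the nuclear total of the cell, and a weak rho over 47 cells is no finding.

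The respiratory chain is built from subunits of both genomes, and of 75 listed nuclear subunits 68 were in the table and 56 had enough counts to be followed. Their median rho was 0.13, beside 0.02 over all nuclear genes, and 41 of 56 were above 0, beside 2225 of 4140. With every cell thinned to equal depth the median rho of the subunits was 0.08. At full depth these subunits varied less between cells, with a median coefficient of variation of 0.43 beside 0.935 over all nuclear genes followed. In 7 of them, 12.50%, rho was at least 0.3, and in 2, 3.57%, at most -0.3. The 7 were Uqcr10 of complex III (0.30), Cox5b (0.44), Cox7a2 (0.41) and Ndufa4 (0.40) of complex IV, and Atp5d (0.38), Atp5g1 (0.35) and Atp5k (0.34) of the ATP synthase, of which Cox7a2, Ndufa4, Atp5g1 and Atp5k were named after their values were seen. The lowest in each of those lists were Uqcrc2 at -0.05, Cox4i1 at -0.20 and Atp5e at -0.30.

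By complex, the median rho was 0.12 over 27 complex I subunits, from -0.33 for Ndufv3 to 0.30 for Ndufa12. It was 0.10 over 4 subunits of complex II, the complex without any mitochondrially encoded subunit, from -0.09 for Sdha to 0.13 for Sdhc, and 0.03 over 4 of complex III. It was 0.22 over 9 of complex IV and 0.16 over 12 of complex V. In the X-Mus X-Cast cells alone the medians of complexes II and III were negative, at -0.17 and -0.11.

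Genes that transcribe and copy mitochondrial DNA had values of rho near 0. Tfam, which packages mitochondrial DNA and starts its transcription, had a rho of -0.08 at a mean level of 2.99. For Polrmt, the mitochondrial RNA polymerase, rho was -0.06 at a mean level of 0.527, with counts in 26 cells. Over 8 genes of this kind the median was -0.05, from -0.14 for Tfb1m to 0.25 for Ssbp1, the single-stranded DNA-binding protein. None passed 0.3 in either direction.

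The genes of mitochondrial RNA processing had a median rho of 0.09 over 8 members, from -0.19 for Lrpprc, which stabilizes mitochondrial messengers, to 0.24 for Supv3l1, a helicase of the RNA degradosome, and none passed 0.3. In the X-Mus X-Cast cells alone that median was -0.05. Of 5 genes of mitophagy and dynamics 1 passed -0.3, the mitophagy receptor Bnip3 at -0.45, with counts in 31 cells, and Dnm1l, a fission enzyme, was highest at 0.15. The 3 biogenesis regulators with enough counts lay between -0.01 for Pprc1 and 0.21 for Nrf1. Genes of the mitochondrial ribosome were not analysed here. Over 12 iPSC markers rho ran from -0.23 for Dppa4 to 0.25 for Tfcp2l1, with a median of -0.01. The fibroblast markers had too few counts.

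The nuclear genes whose level was most like the mitochondrial level were Sf3b5, a splicing factor subunit, with a rho of 0.62, Dad1, a subunit of the oligosaccharyltransferase, with 0.57, Prpf38b with 0.52, Atrx, a chromatin remodeller on the X, with 0.51, and Dhrs7b with 0.51. Sf3b5 ranged from 6.87 to 67.2 counts per 10000 nuclear counts with a median of 23.4 and was counted in all cells. At the other end stood Actr3, a subunit of the actin-nucleating Arp2/3 complex, at -0.56, Ash2l at -0.51, Hip1 at -0.50 and Fam162a at -0.50. Hip1 was counted in only 19 cells. These are the ends of a ranking of 4140 genes, and in the 43 cells without the 4 of lowest share Sf3b5 stood at 0.55, Actr3 at -0.58 and Fam162a at -0.38.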

How the data were processed

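Allelic counts of single-cell RNA-seq were analysed for 47 iPSCs of 1 plate, each with a Mus and a Cast column. The authors deposited raw counts per gene and allele. The submitters' processing notes name STAR (2.5.3a), SAMtools and the mm10 build. For related plate libraries the methods describe strain-masked alignment, splitting of reads by strain (129S1_SvImJ and CAST_EiJ), counts at SNP positions summed per gene, and removal of genes with few SNPs, and none is given separately for this plate. Libraries were read as 50 bp single ends after 23 cycles of cDNA amplification.

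Both alleles were summed, and levels were computed as counts per 10000 nuclear counts (scipy 1.17.1, pandas 2.3.3 and numpy 2.4.6 under Python 3.11.15). No cell was left out. X classes were taken from the column names. Cells were not treated as replicates, so no test between groups was run. Dixon's criterion was used only to single out cells in the closing section. Shares carry Clopper-Pearson intervals. Nuclear genes needed a mean of at least 5 counts. Genes were named by rule: the mitochondrial genes, the 5 nuclear genes of highest and of lowest rho, the ends of each list, Tfam, Polrmt and Lrpprc. Marker genes of the cell type check and 4 subunits of complexes IV and V were named besides, after their values were seen. A gene that this rule names is not reported here. The members and lists were chosen with earlier results of these data known. The scripts were tested on simulated data.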

Additional observations from a re-analysis of the deposited data

Results flagged for a closer look

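Within the 9 X-Mus O-Cast cells, 5 values lay farther from the others than Dixon's 95% critical value of 0.493 allows, among 12 quantities looked at. Chance places a value this far out in about 1 in 20 groups, and the quantities of a cell are not independent. The cell of well B1 was the lowest in mitochondrial share, at 9.47% with the next cell at 16.5%, and in mt-Cytb, at 247 counts per 10000 nuclear counts with the next at 671. The cell of well E4 was the highest in mt-Rnr1 (4.33, next 2.14), mt-Nd2 (186, next 101) and mt-Nd4 (295, next 106). E4 was the shallowest cell of the plate, with 71682 allelic counts and 2918 detected genes, and B1 had 26 fibroblast marker counts. The part of depth or of other cells in these values was not tested. Classes of 23 and 15 cells were not looked at in this way.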

How the results depend on the processing

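Most values moved little under other settings. The mitochondrial Mus share was 99.9941% as a median over cells, 99.99% without mt-Nd1 and 99.9943% without mt-Co1. The mitochondrial share of the cell was 39.7% of Mus counts alone, 28.8 per 100 autosomal counts and 12.2% without mt-Nd1, which follows from the totals used. The median rho among mitochondrial genes reversed to -0.0078 on shares of the mitochondrial counts. That of mt-Co1 with the others turned to 0.14 on counts as deposited, 0.16 in X-Mus X-Cast cells and 0.065 without the 4 cells of lowest share, the last setting having been chosen after seeing the data. Nuclear genes past a rho of 0.3 and of -0.3 numbered 382 and 413 in X-Mus X-Cast cells (9.44% and 10.2%, with fewer cells), 293 and 306 with no filter (2.41% and 2.51% of 12176 genes), and 114 and 58 with every cell thinned to 71682 counts (4.87% and 2.48% of 2341), and 242 passed -0.3 with a mean of at least 1 count (3.03% of 7975), against 176 and 123 (4.25% and 2.97% of 4140). Median rho turned to -0.17 for complex II, -0.11 for complex III, -0.05 for RNA processing and 0.0317 for mitophagy in X-Mus X-Cast cells, where that of complex IV rose to 0.35, to 0.0361 for mitophagy after thinning, and to 0.11 for biogenesis without the 4 cells; the cause was not tested. With a mean of at least 1 count, 1921 genes were past 1.5-fold higher and 1815 lower in X-Cast O-Mus cells (24.1% and 22.7%, against 666 and 616, 16.1% and 14.8%) and 1866 and 2354 in X-Mus O-Cast cells (23.4% and 29.5%, against 689 and 886, 16.6% and 21.4%), and 1068 were lower in X-Cast O-Mus cells by medians (26.8%); the cause was not tested. The spread of mitochondrial genes was 0.216 as a median absolute deviation over the median, beside 0.238 for nuclear genes averaging 100 or more counts (0.346 and 0.398 as coefficients of variation). The X-Mus O-Cast share stayed between 0.751 and 0.852 times that of X-Mus X-Cast cells under all settings. Of the mitochondrial genes, 4 were past 1.5-fold lower in X-Mus O-Cast cells by medians (32.1% of all genes) and 1 with all allelic counts as the total (19.3%), against 2 (21.4%). No paired analysis was possible because the labels give 1 group and no number that pairs cells; values within shared plate rows stand in the report.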
